A study of Mus musculus with 2 samples.

Results

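The D cyclins (Ccnd1, Ccnd2 and Ccnd3), their kinases (Cdk4 and Cdk6), 4 inhibitors of cyclin-dependent kinases (Cdkn1a, Cdkn1b, Cdkn1c and Cdkn2c) and the transcription factor gene Mycn were examined in mouse cerebellum at postnatal day 3. The genes were taken from the count table by symbol, and all 10 were found among its 22423 genes. The Prdm16 conditional knockout (cKO) was compared with a control carrying floxed alleles only (Prdm16fl/fl), both of the C57BL/6 strain. Neither a Cre driver, and so the cells that lost Prdm16, nor the exons removed are named in the labels, and the sex of the animals is missing there too. Triplicates are mentioned in the design, whereas the table holds 1 column of read counts per genotype, treated here as 1 library each. No difference below therefore has a replicate check, and no test between genotypes was possible.

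D cyclins are made when growth signals arrive, bind Cdk4 or Cdk6, and start the phosphorylation of the retinoblastoma protein that releases E2F factors and lets a cell leave the G1 phase. INK4 inhibitors such as Cdkn2c (p18) bind the kinases directly, and CIP/KIP inhibitors, Cdkn1a (p21), Cdkn1b (p27) and Cdkn1c (p57), bind cyclin and kinase complexes. In the early postnatal mouse cerebellum, granule neuron progenitors divide in the external granule layer under Sonic hedgehog, and Mycn, Ccnd1 and Ccnd2 are known as genes that this signal drives there. Cdkn1b and Cdkn2c are known to restrain the same progenitors.

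Reads over genes numbered 17501279 in the cKO library and 18600299 in the control library. The 10 genes took 28355 cKO reads and 27375 control reads, which is 0.162% of the cKO library and 0.147% of the control library, and the thinnest of them, Cdkn2c, had 1454 reads over both. Levels are CPM, the read count of a gene relative to its library total, after TMM scaling between the libraries, and differences are log2 ratios of the cKO over the control with 95% intervals in parentheses that cover counting error only. Prdm16, the targeted gene, had 118 reads in the cKO library and 315 in the control, a log2 ratio of -1.30 (-1.62 to -0.99). All 8 cerebellum markers were present, with Zic1 at 15939 cKO reads and 16884 control reads. Whether the Prdm16 reads fall on the exons removed is not known. The libraries also differed in markers of other tissue and of sex. Choroid plexus markers summed to 192 CPM in the cKO and 6097 CPM in the control, with 12 of 14 lower by at least 2-fold, 0 of the 14 at 0 reads in either library and a median of -3.83. Xist had 21 cKO reads and 14779 control reads, and 4 of 4 Y-linked genes were higher in the cKO library. The part of these differences in the values below was not tested.

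None of the 10 genes differed by 2-fold between the libraries. The largest difference belonged to Cdkn1b, 1.42-fold higher in the cKO library, followed by Cdkn1c (1.25-fold), Cdk4 (1.23-fold) and Cdkn2c (a log2 ratio of 0.27). Ccnd2 and Ccnd3 were lower, at 0.879 and 0.912 times the control level. Over all 18787 genes with at least 10 reads, 3.42% differed by 2-fold with an interval outside 0 (1.21% higher and 2.20% lower), and over the 10160 genes with at least 500 reads, the range that holds all 10 genes, 0.413% did. Since no gene reached that size, a smaller step of 1.2-fold with an interval outside 0 was counted as well. By that rule 4 of the 10 genes were higher in the cKO, Cdk4, Cdkn1b, Cdkn1c and Cdkn2c, and 0 were lower, against 7.17% higher and 7.05% lower among genes with at least 500 reads. Scaling by library totals or by the median of ratios brought Cdkn2c below the step and left 3. Set against genes of like transcript length and GC content, as described further on, 1 of the 4 passed the same step, Cdkn1b. Cells of a type that were fewer or more numerous and less or more RNA per cell cannot be told apart in whole tissue.

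Read over all 10 genes, 8 log2 ratios were above 0 and 2 below, with a median of 0.16, beside 54.3% above 0 and a median of 0.02 among the genes with at least 500 reads. Intervals lay above 0 for 7 and below 0 for 2, beside 25.4% above and 20.0% below in those genes, and the interval of Cdk6 included 0. The members were chosen with such values known, so these counts describe the 10 genes and are no evidence about the pathway. Of the 10 genes, 0 carried a mark of significance in the authors' deposited table, beside 2.77% of all genes. That mark did not follow the deposited adjusted p-values alone, since Cdk4 and Cdkn1b had very small ones and went unmarked. The 0 therefore does not show that the authors' comparison found no difference in these genes.

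**Figure D1:**
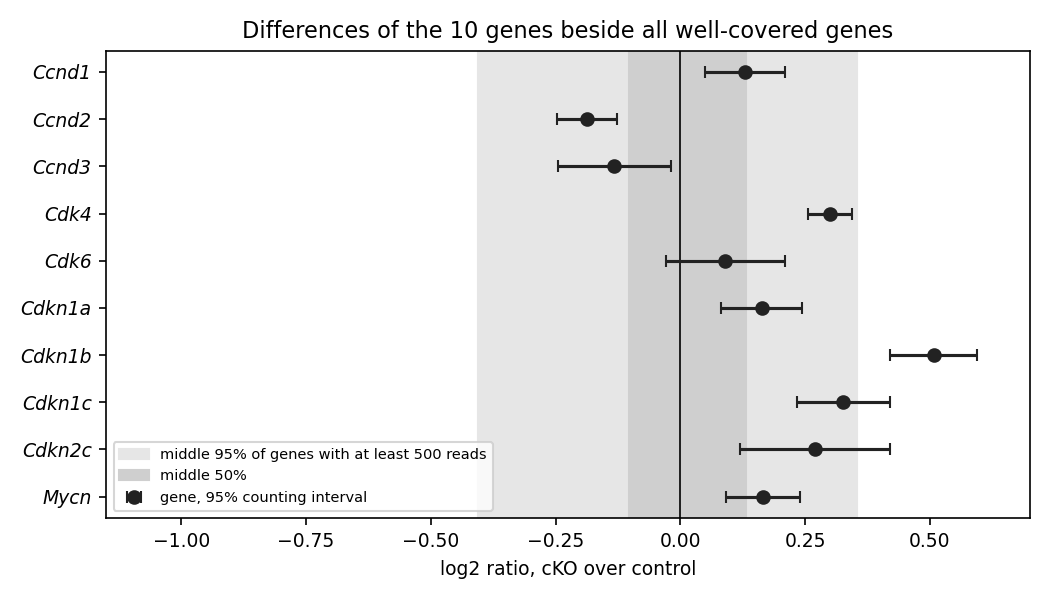
Log2 ratio of the cKO over the control library for each of the 10 genes (points, with 95% counting intervals). The shaded bands mark the middle 50% and the middle 95% of the 10160 genes with at least 500 reads; only Cdkn1b, at 0.51, lies outside the wider band, which ends at 0.35.

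Positions below are those of GENCODE M21 on GRCm38, matched by Ensembl ID, since the count table holds no coordinates. Among the D cyclins, Ccnd2 and Ccnd3 stood lower and Ccnd1 stood slightly higher in the cKO library. Ccnd2, the D cyclin with the most reads in both libraries, had 3995 reads or 231 CPM in the cKO and 4935 reads or 263 CPM in the control. Its log2 ratio was -0.19 (-0.25 to -0.13), and 13.2% of genes with at least 500 reads had a lower ratio. Ccnd3, a D cyclin best known in blood and muscle cells, had 1171 reads or 67.6 CPM in the cKO and 1393 reads or 74.1 CPM in the control, a log2 ratio of -0.13 (-0.25 to -0.02). Its 99% interval, -0.28 to 0.02, included 0. Ccnd1, the D cyclin most often used as a readout of mitogen signalling, had 2549 reads or 147 CPM in the cKO and 2530 reads or 135 CPM in the control, a log2 ratio of 0.13 (0.05 to 0.21). Ccnd1 (ENSMUSG00000070348) lies at chr7:144929931-144939925 on the minus strand. Ccnd2 (ENSMUSG00000000184) lies at chr6:127125162-127152193 on the minus strand. Ccnd3 (ENSMUSG00000034165) lies at chr17:47505051-47599691 on the plus strand. Exons of Oraov1 on the opposite strand overlap 23.4% of the Ccnd1 exon bases, and those of Bysl 4.11% of the Ccnd3 bases. On Ccnd2, the antisense genes Gm43126 and 9330179D12Rik overlap 3.95% and 3.91% of the exon bases. Reads of such pairs cannot be told apart without known strand use in the counting, and Oraov1 had 354 cKO reads and 368 control reads. The 3 genes thus did not move together, and each difference was smaller than 1.2-fold. Summed, the D cyclins had 445 CPM in the cKO and 471 CPM in the control, a log2 ratio of -0.08 (-0.13 to -0.04).

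The makeup of the D cyclin reads can be read within each library, where scaling has no part. Ccnd2 made up 51.8% of D cyclin reads in the cKO (exact binomial 95% interval 50.7 to 52.9) and 55.7% in the control (54.7 to 56.8). Ccnd1 made up 33.0% in the cKO (32.0 to 34.1) and 28.6% in the control (27.6 to 29.5). Ccnd3 made up 15.2% in the cKO (14.4 to 16.0) and 15.7% in the control (15.0 to 16.5), and these intervals overlap. There were 1.57 Ccnd2 reads for each Ccnd1 read in the cKO and 1.95 in the control, a change of -0.32 on the log2 scale (-0.42 to -0.22). For Ccnd3 against Ccnd1 the counts gave 0.459 in the cKO and 0.551 in the control, a change of -0.26 (-0.40 to -0.12). Both shifts were toward Ccnd1.

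**Figure D2:**
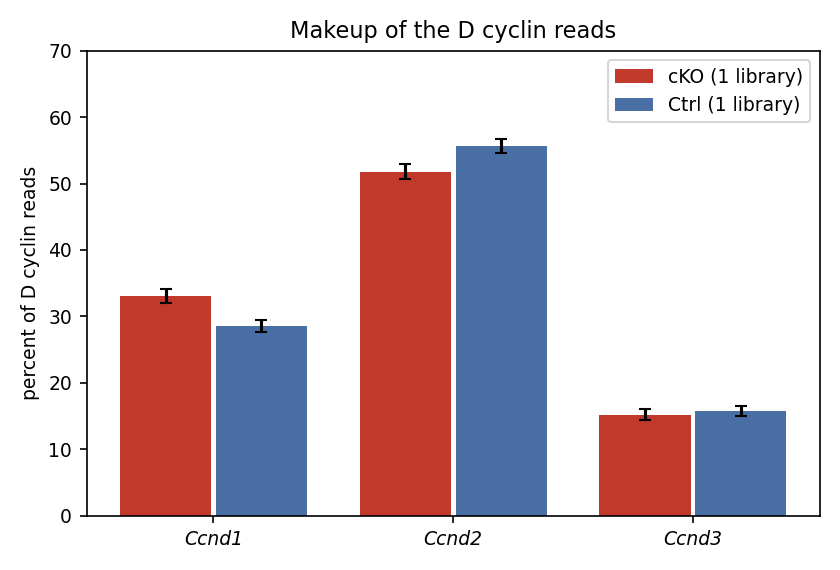
Share of D cyclin reads that fell on each D cyclin gene, in percent, with exact binomial 95% intervals, for the cKO and the control library. The Ccnd1 bar is taller in the cKO (33.0% against 28.6%), the Ccnd2 bar is shorter (51.8% against 55.7%), and the Ccnd3 bars differ by less than their intervals.

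A read share also follows transcript length, so levels between genes were compared per length. Over the union of annotated exons, Ccnd1 held 49.2% of the D cyclin signal per kb in the cKO and 44.0% in the control, and Ccnd2 held 38.6% in the cKO and 43.0% in the control. Over the longest coding transcript of each gene, Ccnd1 held 36.5% in the cKO and 32.0% in the control, Ccnd2 33.8% in the cKO and 36.9% in the control, and Ccnd3 29.7% in the cKO and 31.2% in the control. The shift from Ccnd2 toward Ccnd1 appears under both lengths by construction, since each gene has the same length in both libraries, and this is no further support. Against genes of like length and GC content, as described further on, Ccnd1 lay 0.14 above its neighbours and Ccnd2 0.10 below. Which of them led in the control depended on the length used. Their counting intervals overlapped by exon union, and Ccnd2 led by the longest transcript.

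Cdk4 was the most abundant of the 10 genes and was higher in the cKO library. It had 8768 reads or 506 CPM in the cKO and 7729 reads or 411 CPM in the control, the largest difference in CPM among the 10 (95.1 CPM). The log2 ratio was 0.30 (0.26 to 0.34), and 95.3% of genes with at least 500 reads had a lower one. Cdk6, the kinase that shares the D cyclins with Cdk4, had 1134 reads or 65.5 CPM in the cKO and 1156 reads or 61.5 CPM in the control. Its log2 ratio of 0.09 (-0.03 to 0.21) was not distinguishable from 0 at this depth. Per length, Cdk4 ranked first and Cdk6 last of the 10 genes in both libraries under both lengths. For each Cdk4 read there were 0.129 Cdk6 reads in the cKO and 0.150 in the control, a change of -0.21 on the log2 scale (-0.34 to -0.08). Against genes of like transcript length and GC content, as described further on, Cdk6 lay 0.20 above and Cdk4 lay 0.20 above. The change between the 2 kinases therefore does not remain by that comparison. Cdk4 (ENSMUSG00000006728) lies at chr10:127063534-127067920 on the plus strand, and Cdk6 (ENSMUSG00000040274) lies at chr5:3341485-3531008 on the plus strand. Exons of Tspan31 on the opposite strand overlap 19.7% of the Cdk4 exon bases. Those of Gm17590 overlap 2.63% of the Cdk6 exon bases. Reads of these pairs cannot be told apart either, and Tspan31 itself had 740 cKO reads and 800 control reads (0.01, -0.14 to 0.15).

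Promoters are shown for 4 genes: Cdk4 for its repeated E-boxes, Mycn for its E2F sites, Cdkn1a for its p53 element and Cdkn1b for its ratio. RefSeq promoter windows of the GRCm38.p6 build, from 250 bases before to 50 bases after a gene start, matched 7 of the 10 genes with 10 windows; Ccnd1, Ccnd2 and Cdkn1c had none. Searched on both strands were the E-box CACGTG bound by MYC and MAX, the GLI site GACCACCCA, the E2F sites TTTCGCGC and TTTGGCGC, the TATA box TATAAA and, added after the values had been seen, the CCAAT box and the paired p53 response element with at most 1 mismatch. Only the bases before the start are printed, with the motif matches in capitals, and the positions given are those of the printed bases. Searches and shares over all windows cover the 50 bases after the start as well. A match describes the letters and shows no binding. The Cdk4 window on the plus strand, chr10:127063285-127063534, held 4 E-boxes, which begin 172, 118, 98 and 11 bases before the start. An E-box occurs in 7.15% of the 32851 windows of all genes, and 4 or more occur in 8 of them.
Cdk4: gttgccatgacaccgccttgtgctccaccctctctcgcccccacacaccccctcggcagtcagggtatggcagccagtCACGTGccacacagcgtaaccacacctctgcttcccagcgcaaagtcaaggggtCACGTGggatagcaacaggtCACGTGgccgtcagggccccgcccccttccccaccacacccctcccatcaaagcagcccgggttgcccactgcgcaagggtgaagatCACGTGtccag

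Cdkn2c, the INK4 member, was the least abundant of the 10 by CPM and stood higher in the cKO library. It had 765 reads or 44.2 CPM in the cKO and 689 reads or 36.7 CPM in the control, with a log2 ratio of 0.27 (0.12 to 0.42). Cdkn2c (ENSMUSG00000028551) lies at chr4:109660876-109667189 on the minus strand. Its wide interval reaches down to a difference of 1.09-fold. The other INK4 inhibitors did not share this direction beyond counting error. Cdkn2d (p19) had 668 reads in the cKO and 794 in the control, a log2 ratio of -0.13 (-0.28 to 0.02). Cdkn2b had 9 reads in each library, and Cdkn2a, with 3 cKO reads and 4 control reads, was under the minimum of 10.

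Cdkn1b stood apart most among the 10 genes. It had 2470 reads or 143 CPM (137 to 148) in the cKO and 1885 reads or 100.3 CPM (95.8 to 105) in the control. The Poisson intervals of the 2 libraries do not overlap. The log2 ratio was 0.51 (0.42 to 0.60), and 1.90% of genes with at least 500 reads lay as far from 0 in either direction. Set against the summed D cyclins within each library, there were 0.320 Cdkn1b reads per D cyclin read in the cKO and 0.213 in the control, a change of 0.59 on the log2 scale (0.49 to 0.69). Cdkn1b (ENSMUSG00000003031) lies at chr6:134920401-134925513 on the plus strand, and no annotated gene overlaps its exons. Its promoter window on the plus strand, chr6:134920151-134920400, held no E-box, GLI, E2F or TATA match and had CCAAT boxes 161 and 35 bases before the start. Another, in reverse complement, begins 45 bases after the start and is not printed. A CCAAT box is found in 37.4% of all windows.
Cdkn1b: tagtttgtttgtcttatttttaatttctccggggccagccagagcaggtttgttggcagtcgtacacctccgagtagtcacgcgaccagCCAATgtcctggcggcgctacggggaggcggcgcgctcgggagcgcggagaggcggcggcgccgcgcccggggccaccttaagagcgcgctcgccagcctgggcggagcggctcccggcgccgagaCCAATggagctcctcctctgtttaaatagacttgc

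Cdkn1c, an imprinted inhibitor expressed from the maternal allele, was also higher. It had 2016 reads or 116 CPM in the cKO and 1745 reads or 92.8 CPM in the control, a log2 ratio of 0.33 (0.23 to 0.42), above that of 96.4% of genes with at least 500 reads. Cdkn1c (ENSMUSG00000037664) lies at chr7:143458339-143461050 on the minus strand. Exons of an antisense gene, Gm44732, cover 30.7% of its exon bases on the opposite strand, and reads of the pair cannot be told apart. Meningeal fibroblast markers were higher in the same library, with 13 of 13 log2 ratios above 0, from Igf2 at 0.10 to Crabp2 at 0.56, a median of 0.33, 7 higher by 1.2-fold and sums of 3302 CPM in the cKO and 2760 CPM in the control. Among all genes with at least 500 reads, 7.17% were higher by 1.2-fold. The part of the meningeal fibroblast markers in the Cdkn1c value was not tested. No marker of that list was at 0 in either library.

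Cdkn1a, the classical p53 target among these inhibitors, differed less. It had 2514 reads or 145 CPM in the cKO and 2437 reads or 130 CPM in the control, a log2 ratio of 0.16 (0.08 to 0.24). Cdkn1a (ENSMUSG00000023067) lies at chr17:29090976-29100727 on the plus strand. Exons of AC167363.2 on the opposite strand overlap 7.68% of its exon bases, and reads of that pair cannot be told apart. Of 12 other p53 target genes, 0 were higher by 1.2-fold and 1 was lower, with a median of -0.01. Among all genes with at least 500 reads, 7.17% were higher and 7.05% lower, so counts this small in a list of 12 are near that background. Bax, which promotes apoptosis, was the highest at 0.12 (-0.05 to 0.29), and Phlda3, with 202 cKO reads and 301 control reads, the lowest at -0.46 (-0.72 to -0.20). The upstream Cdkn1a window on the plus strand, chr17:29090729-29090978, held a p53 response element with 1 mismatch. It begins 51 bases before the gene start of that window. The other Cdkn1a window, chr17:29093519-29093768, lies before a start further downstream and held no such element. Such an element occurred in 22 of the 32851 windows of all genes.
Cdkn1a: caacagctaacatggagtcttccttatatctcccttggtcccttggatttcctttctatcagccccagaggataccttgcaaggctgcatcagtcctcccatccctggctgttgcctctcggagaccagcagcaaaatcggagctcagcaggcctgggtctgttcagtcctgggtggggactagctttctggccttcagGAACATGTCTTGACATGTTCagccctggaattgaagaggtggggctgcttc

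Summed, the CIP/KIP inhibitors had 404 CPM in the cKO and 323 CPM in the control, a log2 ratio of 0.32 (0.27 to 0.37). All 3 were higher, whereas the summed D cyclins were slightly lower. Within the CIP/KIP reads, Cdkn1b took 35.3% in the cKO (34.2 to 36.4) and 31.1% in the control (29.9 to 32.3). Cdkn1a took 35.9% in the cKO (34.8 to 37.1) and 40.2% in the control (38.9 to 41.4). The share of Cdkn1c was alike, at 28.8% in both libraries. The kinases summed to 572 CPM in the cKO and 473 CPM in the control, a log2 ratio of 0.27 (0.23 to 0.32) that rested mainly on Cdk4.

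**Figure D3:**
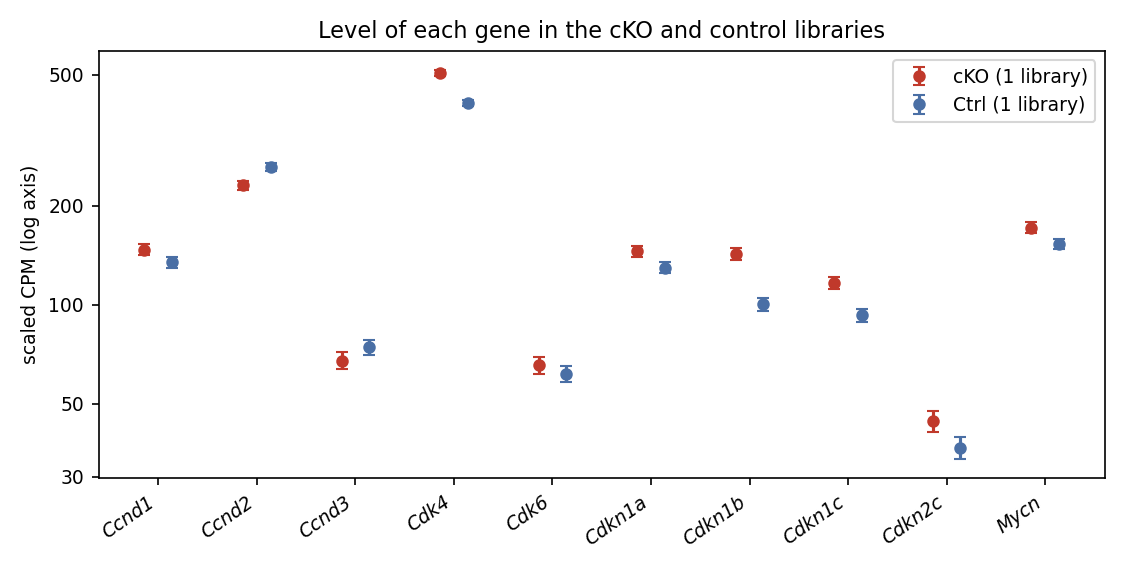
Scaled CPM of each of the 10 genes (log axis) in the cKO and the control library, 1 library each, with exact Poisson 95% intervals. Cdk4 is the highest point in both libraries (506 CPM in the cKO and 411 CPM in the control), Cdkn2c is the lowest (44.2 CPM in the cKO and 36.7 CPM in the control), and the widest gap is at Cdkn1b (143 CPM in the cKO and 100.3 CPM in the control).

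Mycn, the MYC family gene that hedgehog signalling raises in granule neuron progenitors, was slightly higher. It had 2973 reads or 172 CPM in the cKO and 2876 reads or 153 CPM in the control. The log2 ratio of 0.17 (0.09 to 0.24) exceeded that of 81.2% of genes with at least 500 reads. Mycn (ENSMUSG00000037169) lies at chr12:12936093-12941914 on the minus strand. Its promoter window on the minus strand, chr12:12941837-12942086, is shown because it was the only one of the 10 windows with E2F sites. TTTGGCGC begins 183 and 168 bases before the start, and the reverse complement of TTTCGCGC begins at 179 and overlaps the first of these. TTTCGCGC occurs in 0.323% and TTTGGCGC in 0.514% of all windows. None of the 10 windows held the GLI site, which 0.253% of all windows have, and the CACGTG E-box was in windows of Cdk4, Cdk6 and Cdkn2c.
Mycn: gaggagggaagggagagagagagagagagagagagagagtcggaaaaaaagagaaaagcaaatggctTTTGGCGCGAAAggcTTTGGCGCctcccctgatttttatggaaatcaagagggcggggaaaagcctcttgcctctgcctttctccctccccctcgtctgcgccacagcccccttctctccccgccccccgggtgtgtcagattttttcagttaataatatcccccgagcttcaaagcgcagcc

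Per length of the exon union, the order of levels was nearly the same in the libraries. In the cKO it ran from Cdk4 (156 CPM per kb) through Cdkn1c (57.1), Mycn (52.1), Cdkn1a (40.9), Cdkn1b (31.3), Ccnd1 (31.3), Ccnd2 (24.5), Cdkn2c (16.4) and Ccnd3 (7.71) to Cdk6 (4.68). Cdkn1b and Ccnd1 did not differ there beyond their counting intervals. In the control it ran from Cdk4 (127 CPM per kb) through Mycn (46.4), Cdkn1c (45.5), Cdkn1a (36.5), Ccnd1 (28.6), Ccnd2 (27.9), Cdkn1b (22.0), Cdkn2c (13.6) and Ccnd3 (8.45) to Cdk6 (4.40). Neither Mycn and Cdkn1c nor Ccnd1 and Ccnd2 differed there beyond those intervals. Cdkn1b thus stood level with Ccnd1 in the cKO and below both Ccnd1 and Ccnd2 in the control. With the longest coding transcript as the length, Cdkn1b ranked eighth in both libraries. The annotation is GENCODE M21 on GRCm38, whereas the submitters' processing notes name mm9, so these lengths are approximate.

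Short transcripts were higher in the cKO library as a whole and the members differ in length. Over 9942 genes with at least 500 reads and an annotated coding transcript, the median log2 ratio was 0.10 in the shortest and -0.08 in the longest of 5 equal bins of length. Over bins of GC content it ran between -0.03 and 0.07. Each member was therefore also set against the 500 genes nearest to it in transcript length and GC content, a comparison added after the values had been seen. Cdkn1b stood out further: its 4.55 kb transcript has neighbours with a median of -0.05, all 500 of them had a lower ratio, and its difference from their median was 0.55 (0.47 to 0.64). Ccnd3 also lay further out, with a difference of -0.24 (-0.35 to -0.12) and 461 of 500 neighbours above it. Cdk6, with an 11.5 kb transcript, lay 0.20 (0.08 to 0.32) above its neighbours.

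The other members came closer to 0 by this comparison, apart from Ccnd1 at 0.14 (0.06 to 0.22). Cdk4 lay 0.20 above its neighbours (0.16 to 0.25), Cdkn1c 0.22 (0.13 to 0.31) and Cdkn2c 0.18 (0.03 to 0.33). Mycn lay 0.085 above (0.01 to 0.16). The interval of Cdkn1a, 0.063 (-0.02 to 0.14), included 0. Ccnd2 lay 0.10 below its neighbours (-0.16 to -0.04), and 135 of the 500 had a lower ratio. Against genes of like length and GC content, 1 of the 10 was higher by 1.2-fold, Cdkn1b, and 0 were lower, beside 4.32% higher and 6.46% lower among the 9942 genes. No direction of a member turned.

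**Figure D4:**
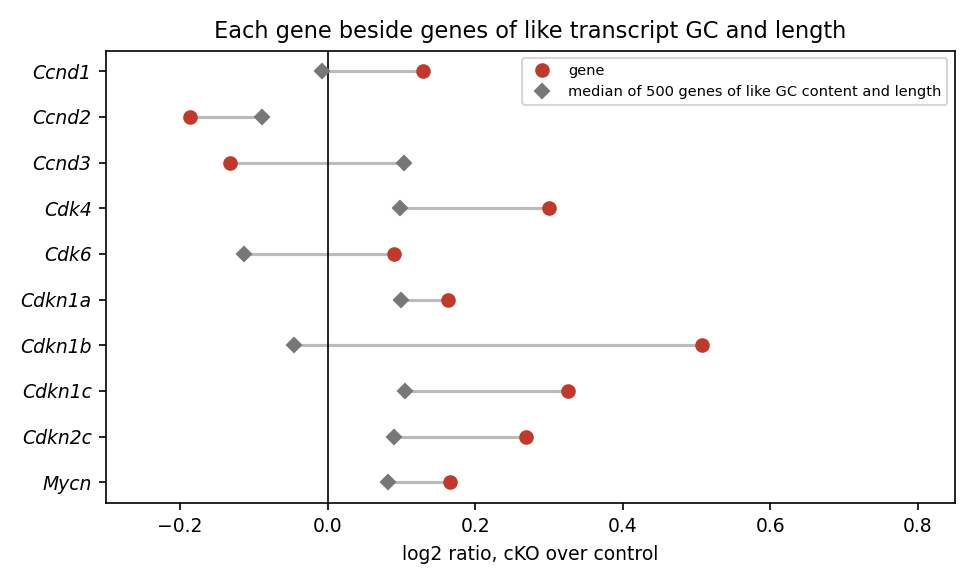
Log2 ratio of the cKO over the control library for each gene (circles) beside the median log2 ratio of the 500 genes nearest in transcript length and GC content (diamonds). The line between them is longest for Cdkn1b (0.51 against -0.05) and short for Cdkn1a (0.16 against 0.10) and Mycn (0.17 against 0.08).

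The genes around these members differed by small amounts as well. In 9 lists of cell cycle and MYC pathway genes with 77 measured genes other than the members, 0 differed by 2-fold, 16 were higher by 1.2-fold, 1 was lower, and the median was 0.10. Among all genes with at least 500 reads, 0.413% differed by 2-fold, and 7.17% were higher and 7.05% lower by 1.2-fold. Those shares are also the background for the counts of each list below. Of 13 pocket protein and E2F genes, 4 were higher by 1.2-fold and 0 lower, with a median of 0.07. E2f4, which acts mainly as a repressor with the pocket proteins, was the highest at 0.44 (0.33 to 0.56), and the activator E2f3 the lowest at -0.18 (-0.33 to -0.03). The retinoblastoma gene Rb1, the main substrate of Cdk4 and Cdk6, stood at -0.02 (-0.14 to 0.11). Of 8 genes for cyclins E and A, Cdk2 and the Cdk-activating kinase, 1 was higher and 0 lower, with a median of 0.20. Mnat1, the assembly factor of that kinase, led at 0.49 (0.30 to 0.68), and the phosphatase gene Cdc25a was the lowest at -0.01 (-0.18 to 0.16).

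Genes that set the stability of G1 regulators lay on both sides of 0. Of 8 such genes, 2 were higher by 1.2-fold and 0 lower, with a median of 0.02. The highest was Fzr1, an activator of the anaphase-promoting complex, at 0.34 (0.26 to 0.41), and the lowest the cullin gene Cul1 at -0.14 (-0.22 to -0.06). Skp2, the ubiquitin ligase subunit that removes the Cdkn1b protein, had 529 cKO reads and 619 control reads, a log2 ratio of -0.11 (-0.28 to 0.06), while its cofactor gene Cks1b stood at 0.33 (0.19 to 0.47). Rb1, Zic1, Skp2 and Cks1b were picked after their values were seen.

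In the MYC network, 1 of 11 genes was higher and 0 were lower by 1.2-fold, with a median of 0.04. Mxd3, a MAX dimerization partner expressed in dividing progenitors, was the highest at 0.43 (0.27 to 0.59), and Mga the lowest at -0.19 (-0.31 to -0.07). Of 6 genes of MYCN protein turnover, 1 was higher and 0 lower, with a median of 0.04. Aurka, whose kinase stabilizes MYCN in human neuroblastoma cells, stood at 0.31 (0.14 to 0.49) and the ubiquitin ligase gene Huwe1 at -0.11 (-0.16 to -0.06).

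Genes of later cell cycle phases had log2 ratios above 0 by small amounts, and 7 of these 18 genes passed the 1.2-fold step. All 10 S phase genes had intervals above 0, 4 of them by 1.2-fold, with a median of 0.21, from Rrm2 at 0.13 (0.04 to 0.22) to Mcm3 at 0.36 (0.27 to 0.45). All 8 G2 and M phase genes had ratios above 0, 6 with an interval above 0 and 3 by 1.2-fold, with a median of 0.17, from Cenpe at 0.06 (-0.11 to 0.22) to Plk1 at 0.38 (0.24 to 0.52). Housekeeping genes had a median of 0.12, with 2 of 13 higher by 1.2-fold. Gapdh stood at 0.42 (0.36 to 0.49), higher than Cdk4, and B2m at -0.21 (-0.32 to -0.10). Against genes of like length and GC content, the median was 0.18 for S phase, 0.20 for G2 and M phase and 0.07 for the 12 housekeeping genes with at least 500 reads.

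**Figure D5:**
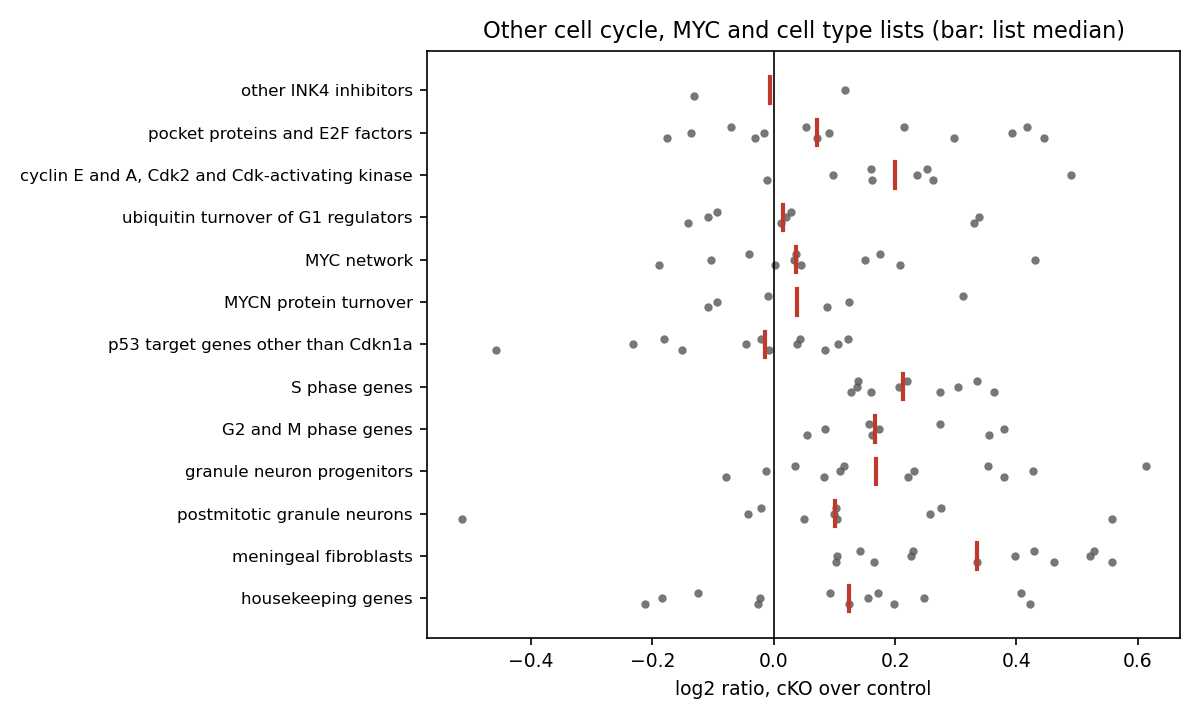
Log2 ratio of the cKO over the control library for the genes of other cell cycle, MYC, cell type and housekeeping lists (points), with the median of each list (bar). S phase genes (median 0.21) and G2 and M phase genes (median 0.17) lie wholly to the right of 0, and the p53 target list (median -0.01) lies around it.

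Markers of the cells that could carry these transcripts were set beside them. Granule neuron progenitor markers had a median of 0.17, with 4 of 12 higher by 1.2-fold and 0 lower, from Sfrp1 at -0.08 (-0.16 to 0.00) to Atoh1 at 0.61 (0.45 to 0.77), and sums of 2751 CPM in the cKO and 2508 CPM in the control. Postmitotic granule neuron markers, from cells in which Cdkn1b is known to accumulate, had a median of 0.10, with 2 of 10 higher and 1 lower, from Grin2c at -0.51 (-0.81 to -0.22) to Neurod1 at 0.56 (0.50 to 0.62), and sums of 2567 CPM in the cKO and 2311 CPM in the control. Cdkn1b, at 0.51, lay above every progenitor marker except Atoh1 and above every postmitotic marker except Neurod1. The list of 8 cerebellum markers had a median of 0.18, from Zic2 at -0.02 (-0.06 to 0.03) to Pcp2 at 0.71 (0.51 to 0.90).

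For glial and vascular lists the medians were -0.04 for astrocytes and Bergmann glia, -0.05 for the oligodendrocyte lineage, -0.10 for microglia and -0.03 for endothelial and mural cells. By 1.2-fold, 0 of 8 astrocyte and Bergmann glia markers were higher and 3 lower, with Slc1a2 at -0.41 (-0.48 to -0.33) and Gdf10 at 0.26 (0.21 to 0.30) at the ends. For the oligodendrocyte lineage 0 of 8 were higher and 1 lower, with Enpp6 at -0.48 (-1.19 to 0.20) and Olig1 at 0.13 (0.06 to 0.20) at the ends. For microglia 2 of 10 were higher and 3 lower, with Aif1 the highest at 1.15 (0.40 to 1.94). For endothelial and mural cells 0 of 12 were higher and 2 lower, with Slco1c1 at -0.83 (-0.98 to -0.68) and Vtn at 0.24 (0.15 to 0.34) at the ends. The part of any of these cell types in the values of the 10 genes was not tested.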

How the data were processed

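Total RNA of 1 cKO and 1 control cerebellum library (TruSeq kit, per the labels' protocols) was available as read counts per gene in the authors' deposited table. Among the tools, the submitters' processing notes list HTSeq 0.6.0, TopHat2 2.0.12 and Bowtie2 2.2.3, with mm9 as the build and no roles given. Strand use and pooling are not given in the sources used here. Each deposited CPM value was a fixed multiple of its count within the column (to 0.0001 of its size), and a count of 0 had been replaced by 0.5. The deposited fold change, its log2 and the p-value columns are the authors' own. Only the authors' mark of significance was counted, and their adjusted p-values served only to read that mark.

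Counts were scaled by TMM in edgeR 4.0.16 (R 4.3.3), with factors 0.990 for the cKO and 1.01 for the control. DESeq2 1.42.0 gave the median-of-ratios scaling. Python 3.11.15 with scipy 1.17.1 gave exact binomial (ratios, shares), exact conditional (ratios of ratios) and exact Poisson (CPM) 95% intervals, which cover counting error only. PCR copies cannot be told from independent molecules. Of 22423 genes, 18787 had at least 10 reads. The calculation of ratios and intervals was checked on simulated counts that held counting error only, so that check does not bear on the spread between animals. The members, lists and thresholds were chosen with earlier results of these data known. Named were the members, Prdm16, the highest and lowest gene of each list with at least 50 reads, and genes said to be picked; 1 gene that this rule names is not reported here. Transcript lengths came from GENCODE M21 and promoters from RefSeq. Alternatives were other scalings, minimums, folds and intervals, and a correction for transcript length and GC content.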

Additional observations from a re-analysis of the deposited data

How the results depend on the processing

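With 1 library per genotype no replicate could be left out. No paired analysis was possible because each genotype has 1 library. Other scalings moved each of the 10 log2 ratios by at most 0.03, and none of the 10 reached 2-fold under any scaling. With 99% intervals, that of Ccnd3 included 0 (-0.28 to 0.02). The 642 genes called 2-fold became 231 at a minimum of 50 reads, 1161 at 1.5-fold and 413 with 99% intervals, because those rules are stricter or looser by construction. Set against genes of like transcript length and GC content, an alternative chosen after seeing the data, the log2 ratio was -0.10 for Ccnd2, 0.20 for Cdk4, 0.063 for Cdkn1a, 0.22 for Cdkn1c and 0.085 for Mycn, each outside its first counting interval. That interval still held the values of Ccnd1, Ccnd3, Cdk6, Cdkn1b and Cdkn2c. The interval of Cdk6, which had included 0, nevertheless lay above 0 by this comparison (0.08 to 0.32). That of Cdkn1a, which had lain above 0, came to include it (-0.02 to 0.14). Why length and ratio moved together was not tested. Each of the 10 genes had at least 1454 reads, so counting error was small, and the spread between animals is unknown. Ranks per length changed with the transcript model for most genes, but not for Cdk4 and Cdk6.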
